A study of Mus musculus with 19 samples.

Results

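Greb1, Egr3, Ctsd, Stc1, Stc2, Cited1, Nrip1, Myb, Pdzk1 and Siah2 are 10 genes that textbook accounts of the estrogen receptor list among its direct or early targets. They were read out in sorted mammary LCs (luminal cells, CD24+CD29lo) by taking every probe of a mouse expression array whose gene name was one of the 10, which gave 21 probes. Of the 10 genes, 9 had a probe bright enough to be tested, among 20690 genes tested in all. The arrays came from 19 female C57Bl/6N mice, 1 array per mouse.

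All mice had been ovariectomized at 24 days of age, received hormone pellets 10 days later and were treated for 21 days until they were 8 weeks old. C451A-ERα mice carry a germline knock-in that changes the palmitoylation site of ERα, the modification that lets a fraction of the receptor sit at the plasma membrane, so the change is present in all tissues and not in LCs alone. The 4 groups were C451A-ERα mice given E2 (17β-estradiol, 0.01 mg per 60-day pellet) with Pg (progesterone, 1.5 mg per 60-day pellet), wild-type mice given E2+Pg, C451A-ERα mice given E2 alone and wild-type mice given E2 alone. Values below follow a fixed order of mice: L56, L18, L61, L53 and L63 for C451A-ERα under E2+Pg (n = 5), L57, L62, L44, L47 and L21 for wild-type under E2+Pg (n = 5), L4, L58, L27, L76 and L51 for C451A-ERα under E2 (n = 5), and L67, L50, L72 and L52 for wild-type under E2 (n = 4). No mouse without hormone was included, so the values compare genotypes and hormone mixtures and do not measure an induction by E2.

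When E2 binds ERα, the receptor dimerizes, occupies estrogen response elements and recruits co-regulators that raise or lower transcription of nearby genes. A membrane pool of the same receptor starts kinase signalling without binding DNA. In the mammary gland ERα is present in only a fraction of luminal cells, which pass the signal on to their neighbours through secreted factors. Pg acts through its own receptor in the same cells, and the gene for that receptor is itself an ERα target.

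The sequences that carry the measurements below are the array probes, shown here for the 5 genes on which the comparisons turn. Each line gives the first 30 bases of the probe in lower case.
Greb1 probe: gttatagctgtggactgaagagttgccttc
Ctsd probe: gaaggagcaagaggacagaagcaaaactat
Stc2 probe: aagcagtgagtgggaagatgaacagtctga
Cited1 probe: tgagtttgatttcactgcagattttccctc
Egr3 probe: gggctttaaatctcattttatttcttgttt
On mm9, the build of the probe annotation, they lie at chr12:16678455-16678514, chr7:149561962-149562021, chr11:31260136-31260195, chrX:99442776-99442835 and chr14:70482361-70482420, in the order of the lines. The exon or untranslated region at these positions was not looked up, since no mm9 annotation was used here. None of these probes reads the mutated base of the receptor.

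The 250 bases before the transcription start of Greb1, Ctsd, Stc2 and Cited1 are shown because these 4 genes had the smallest adjusted p between the genotypes averaged over treatments. They were taken from RefSeq (build GRCm38, 5′ to 3′ on the gene's strand), with the 6-base half-site of an estrogen response element, TGACCT or its reverse complement AGGTCA, in capitals.
Greb1 (chr12:16800887-16801136, minus strand): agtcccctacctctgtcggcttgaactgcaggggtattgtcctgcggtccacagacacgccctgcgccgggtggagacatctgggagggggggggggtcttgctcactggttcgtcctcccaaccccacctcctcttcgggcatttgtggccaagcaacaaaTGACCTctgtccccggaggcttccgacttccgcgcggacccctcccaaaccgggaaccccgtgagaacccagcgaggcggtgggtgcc
Ctsd (chr7:142387828-142388077, minus strand): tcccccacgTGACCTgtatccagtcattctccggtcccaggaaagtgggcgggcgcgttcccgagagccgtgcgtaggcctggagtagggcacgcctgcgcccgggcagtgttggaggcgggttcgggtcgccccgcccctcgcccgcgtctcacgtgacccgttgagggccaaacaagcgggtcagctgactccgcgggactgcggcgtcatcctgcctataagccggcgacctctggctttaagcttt
Stc2 (chr11:31370062-31370311, minus strand): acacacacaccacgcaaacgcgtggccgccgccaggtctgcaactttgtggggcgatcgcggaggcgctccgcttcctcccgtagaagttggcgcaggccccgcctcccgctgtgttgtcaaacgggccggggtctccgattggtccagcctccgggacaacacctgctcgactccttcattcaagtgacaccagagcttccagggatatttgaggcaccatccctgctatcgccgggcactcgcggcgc
Cited1 (chrX:102252182-102252431, minus strand): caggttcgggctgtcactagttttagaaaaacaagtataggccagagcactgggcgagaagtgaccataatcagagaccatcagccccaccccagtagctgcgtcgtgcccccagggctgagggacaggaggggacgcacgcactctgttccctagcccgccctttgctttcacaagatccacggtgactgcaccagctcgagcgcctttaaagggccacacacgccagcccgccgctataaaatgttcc
The half-site began 88 bases before the start in Greb1 and 241 bases before it in Ctsd, and these letters were not in the Stc2 and Cited1 windows shown. Another Cited1 window, at a different start site, held it 217 bases before that start. A further Greb1 window, at chr12:16757240-16757489, did not hold it. RefSeq windows matched 7 of the 10 genes, 12 windows in all. Of those, 4 held the half-site, against 14.0% of 32851 mouse windows of the same length, and 0 held the palindrome GGTCANNNTGACC, against 0.0639% of all windows. The half-site shares all but its outermost base with an arm of the palindrome, and both strands were searched.

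Values are log2 signals after quantile normalization between arrays. A gene was called when its adjusted p (limma, Benjamini-Hochberg over all genes tested) was under 0.05 and its fold change was over 1.5. The luminal keratins Krt8 and Krt18 and the general epithelial adhesion molecule Epcam were well above background on all 19 arrays. Genes that mark other cells were detected too: Krt14 (basal cells), Col1a2 (fibroblasts) and Ptprc, the gene of CD45 (immune cells), were above background on 19 arrays each. Of the fat cell genes, Fabp4 was above it on 19 arrays, Cidec on 5, and Adipoq and Plin1 on 0. Of the endothelial genes, Emcn was above it on 19 arrays, Cdh5 on 18, Pecam1 and Kdr on 17 each, and Tek on 0. The cells had been stained for CD45 and CD31 in the sort, a gate against immune and endothelial cells. Of the basal (8 genes tested), fibroblast (6), endothelial (4), immune (6) and adipocyte (2) markers, 0 were called between genotypes averaged over treatments, against 2.27% of all genes. Of 7 luminal progenitor markers 1 was called, the milk protein gene Lalba, which was higher in C451A-ERα (1.45, adjusted p = 0.0271, limma).

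Several mice stood apart before any comparison. Wild-type mice L72 (E2) and L21 (E2+Pg) had Greb1 and Cited1 signals within the C451A-ERα range, and C451A-ERα mice L4 (E2) and L18 (E2+Pg) had them nearest to wild-type. Calca (calcitonin), a gene that Pg induces in mammary epithelium, was 9.12, 11.25, 11.65, 11.78 and 5.72 in C451A-ERα under E2+Pg, against 5.69, 6.36, 4.90 and 4.98 in the C451A-ERα mice under E2 other than L4, which had 8.60. In wild-type mice it was 9.67 to 12.59 under E2+Pg and 4.75 to 5.05 under E2, where 0 of 4 arrays were above background. Mouse L63, labelled E2+Pg, therefore had Calca in the range of mice without Pg, and L4, labelled E2, lay above the other mice of its group. Tnfsf11 (RANKL), a second gene that Pg induces, was above background on 2 of 5 arrays under E2+Pg and 1 of 5 under E2 in C451A-ERα, and on 4 of 5 and 0 of 4 in wild-type, where it was at least 3.05-fold higher with Pg (adjusted p = 0.0977, limma). No label was changed, and whether samples were exchanged was not tested, so deviations of these mice from their groups cannot be told apart from the difference between the genotypes. For the calls below, the effect of leaving out 1 mouse at a time is given. Relations to Greb1 are also given without L4, L18, L72 and L21. The genotype differences were not fitted without these mice together.

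Greb1, which encodes an ERα-binding cofactor at chromatin and is among the earliest genes to respond to estrogen, had the largest difference of the 9 tested genes. Under E2+Pg the signal was 6.05, 9.66, 6.45, 6.01 and 8.04 in C451A-ERα mice, against 11.89, 11.50, 11.07, 11.03 and 9.05 in wild-type mice. Under E2 alone it was 10.88, 5.38, 9.02, 7.04 and 8.58 in C451A-ERα mice, against 12.67, 12.38, 9.51 and 12.75 in wild-type mice. The groups overlapped only through L18 and L21 under E2+Pg and through L4 and L72 under E2. The probe was marked as above background on all 19 arrays, but the lowest C451A-ERα signals lay close to background. In L58 the signal was 5.38, and the lowest signal above background on that array was 4.98. No background was subtracted, so the fold changes of Greb1 depend on this floor. Another Greb1 probe was above background on 0 of 19 arrays and was not tested.

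The mean Greb1 signal was 7.24 ± 1.58 in C451A-ERα and 10.91 ± 1.1 in wild-type mice under E2+Pg (SD, n = 5 each), a log2 difference of −3.67 (SE 0.94) or 12.7-fold, which did not pass the adjusted threshold (adjusted p = 0.114, limma). Under E2 the means were 8.18 ± 2.08 and 11.83 ± 1.55 (SD, n = 5 and 4), a difference of −3.65 (SE 0.998, adjusted p = 0.125, limma). The differences under both hormone mixtures were nearly the same size, and the interaction was −0.02 (SE 1.37). Averaged over treatments, Greb1 fell by 3.66 on the log2 scale in C451A-ERα (SE 0.69, 12.6-fold, adjusted p = 0.0191, limma), with a two-sided exact permutation p of 0.000472. Signals on the same slide were lower in C451A-ERα on 5 of 5 slides under E2+Pg and on 4 of 4 under E2. The call rested on 2 wild-type mice in turn: without L52 the adjusted p was 0.0609 and without L67 it was 0.0597. In a sorted population, fewer cells that express a gene and less RNA per cell cannot be told apart.

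**Figure D1:**
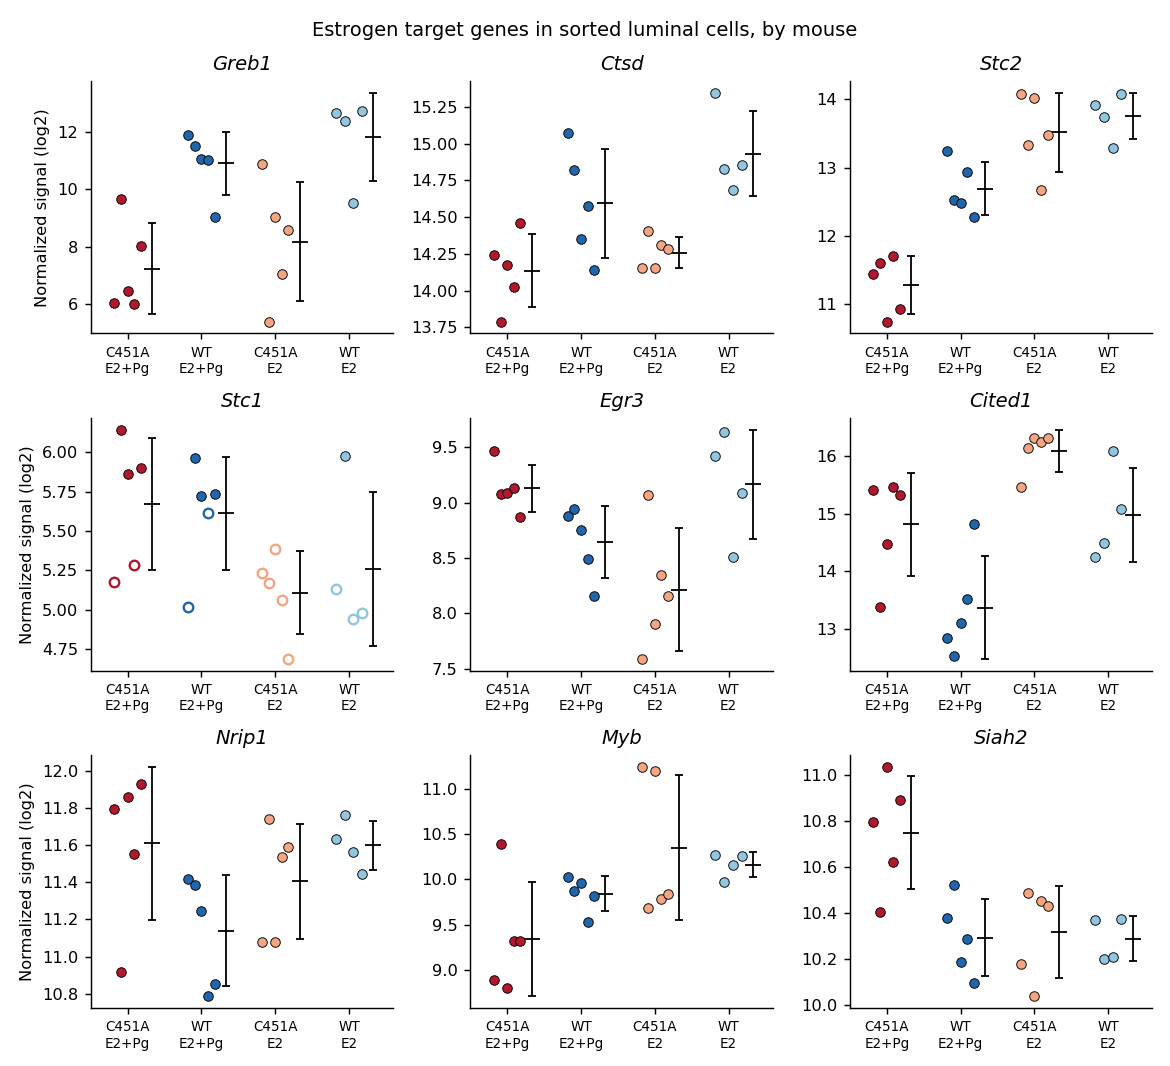
Log2 signal of the 9 tested estrogen target genes in each mouse, by group (1 point per mouse, open where the probe was not well above background; bars, mean ± SD). Greb1 was low in most C451A-ERα mice under both treatments, Stc2 was lowest in C451A-ERα under E2+Pg, and Cited1 was highest in C451A-ERα under E2.

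Ctsd, which encodes the lysosomal protease cathepsin D, was lower in C451A-ERα mice with much less spread. Under E2+Pg it was 14.24, 13.79, 14.17, 14.03 and 14.46 in C451A-ERα, against 15.07, 14.82, 14.35, 14.58 and 14.14 in wild-type. Under E2 it was 14.15, 14.40, 14.15, 14.31 and 14.28 in C451A-ERα, against 15.35, 14.83, 14.69 and 14.86 in wild-type. The groups overlapped under E2+Pg, through L21 and L44, and were fully separate under E2. The log2 differences were −0.46 (SE 0.17, adjusted p = 0.208, limma) under E2+Pg and −0.67 (SE 0.18, adjusted p = 0.125, limma) under E2. Averaged, the difference was −0.56 (SE 0.12, adjusted p = 0.0234, limma), a fold of 1.48, which lay just under the fold threshold, so Ctsd was not called. It passed with the scanner's processed signal (−0.60) and when L63, L72, L21 or L44 was left out.

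The stanniocalcins Stc2 and Stc1 are secreted glycoproteins. Stc2 under E2+Pg was 11.43, 11.60, 10.73, 11.70 and 10.92 in C451A-ERα, against 13.24, 12.53, 12.48, 12.93 and 12.27 in wild-type, with no overlap. Under E2 alone it was 14.08, 13.34, 14.02, 12.67 and 13.48 in C451A-ERα, against 13.92, 13.75, 13.29 and 14.08 in wild-type, with wide overlap. The genotype difference was −1.41 (SE 0.27, 2.67-fold, adjusted p = 0.101, limma) under E2+Pg and −0.25 under E2. Their average, −0.83 (SE 0.20, 1.78-fold, adjusted p = 0.0301, limma), was called but lost the call when L56, L57, L67, L50, L58, L61, L76, L47, L51, L63 or L52 was left out (adjusted p 0.052 to 0.0887) and with the slide as a block (0.0564). The difference between the treatments was −1.17 in the interaction (unadjusted p = 0.00801, adjusted p = 0.474, limma), so a larger genotype difference under E2+Pg did not pass the test. Stc1 was near background: its probe was above it on 3 of 5, 3 of 5, 0 of 5 and 1 of 4 arrays in the group order of the opening. Its group means lay between 5.11 and 5.67, and it was not called in any of the 6 comparisons.

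Cited1, a co-regulator that binds CBP and p300, was the only member called higher in C451A-ERα. Under E2+Pg it was 15.42, 13.38, 14.48, 15.47 and 15.33 in C451A-ERα, against 12.85, 12.53, 13.10, 13.52 and 14.83 in wild-type. Under E2 it was 15.46, 16.15, 16.32, 16.25 and 16.32 in C451A-ERα, against 14.26, 14.49, 16.09 and 15.08 in wild-type. The overlap came from L18 and L21 under E2+Pg and from L72, which lay above L4, under E2. The difference was 1.45 (SE 0.45, 2.73-fold, adjusted p = 0.165, limma) under E2+Pg and 1.12 (SE 0.48, adjusted p = 0.308, limma) under E2. Averaged it rose by 1.29 (SE 0.33, 2.44-fold, adjusted p = 0.0411, limma; two-sided exact permutation p = 0.00306) and was higher in C451A-ERα on all slides of both treatments. Leaving out any 1 of 15 mice took the adjusted p to between 0.0551 and 0.112, and the call held only without L4, L18, L72 or L21. Using no filter on dim probes (adjusted p = 0.0665) or the processed signal in place of the median signal (0.0574) also ended the call.

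Egr3 and Myb are transcription factors, Egr3 an immediate-early zinc finger protein. Egr3 under E2+Pg was 9.47, 9.08, 9.09, 9.13 and 8.87 in C451A-ERα, against 8.88, 8.94, 8.75, 8.49 and 8.16 in wild-type. Under E2 it was 7.59, 9.07, 7.91, 8.35 and 8.16 in C451A-ERα, against 9.43, 9.64, 8.51 and 9.09 in wild-type. The groups overlapped under both treatments. The sign of the genotype difference differed between the treatments, 0.48 (SE 0.25, adjusted p = 0.298, limma) under E2+Pg and −0.95 (SE 0.26, adjusted p = 0.130, limma) under E2. Egr3 was higher in C451A-ERα on 5 of 5 slides under E2+Pg and lower on 4 of 4 under E2. The interaction was 1.44 (SE 0.36, unadjusted p = 0.000937, adjusted p = 0.474, limma) and was not called. A second Egr3 probe gave 0.29 under E2+Pg and −0.90 under E2, the same signs. Myb ranged from 8.80 to 10.39 in C451A-ERα and from 9.53 to 10.02 in wild-type under E2+Pg, and from 9.68 to 11.25 and from 9.98 to 10.27 under E2, so its spread was wider in C451A-ERα under both treatments.

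Nrip1 (RIP140, a co-repressor of nuclear receptors), Siah2 (a ubiquitin ligase) and Pdzk1 (a scaffold protein) complete the set. Nrip1 averaged 11.61 ± 0.41 in C451A-ERα and 11.14 ± 0.30 in wild-type under E2+Pg (SD, n = 5 each), a difference of 0.47 (adjusted p = 0.230, limma), against −0.20 under E2. Siah2 averaged 10.75 ± 0.25 in C451A-ERα and 10.29 ± 0.17 in wild-type under E2+Pg (SD, n = 5 each), a difference of 0.46 (adjusted p = 0.131, limma), against 0.03 under E2. Neither gene was called between the genotypes. Of 5 Nrip1 probes, 3 on other transcripts varied far more among mice than the brightest, with a genotype difference of 1.02 to 1.33 under E2+Pg that was not called either. The Pdzk1 probes were above background on 2 arrays at most and were not tested.

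**Figure D2:**
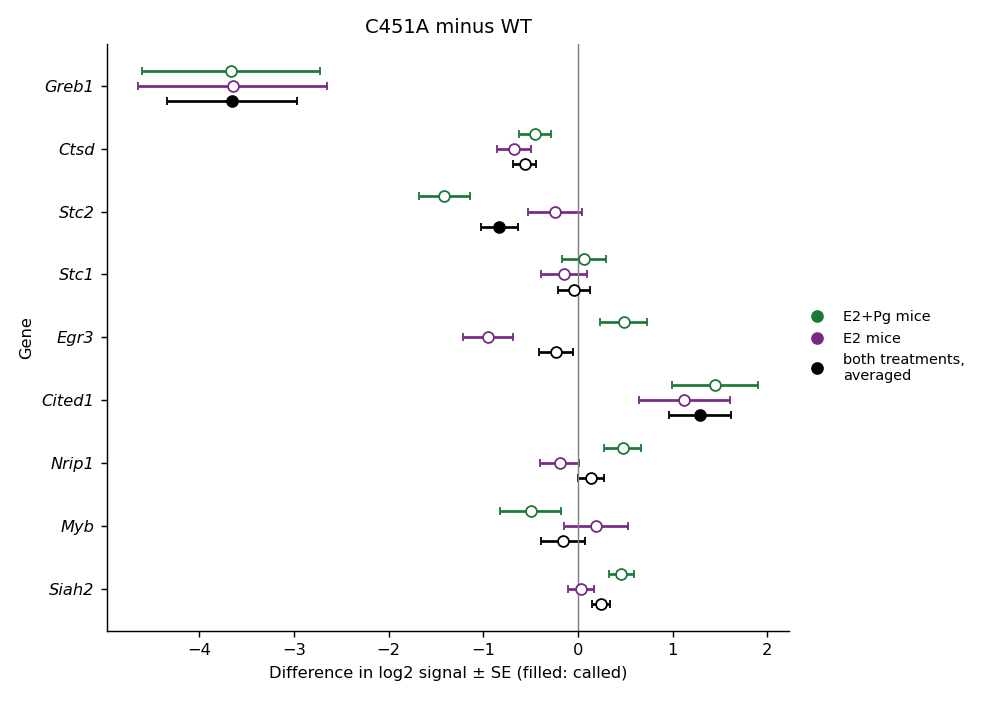
Log2 difference between C451A-ERα and wild-type for each tested gene under E2+Pg (green), under E2 (purple) and averaged over treatments (black), ± SE; filled points passed the test. Filled points are Greb1 at −3.66, Stc2 at −0.83 and Cited1 at 1.29, all averaged over treatments.

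Counted over the set, 0 of 9 genes were called between C451A-ERα and wild-type under E2+Pg, where 0.00483% of all genes were called, and 0 of 9 under E2, where 0.029% were. Before adjustment, 6 and 4 of the 9 had a p under 0.05, as did 3794 and 2832 of 20690 genes. Averaged over treatments 3 of 9 were called, 2 lower and 1 higher, against 2.27% of all genes, of which 400 fell and 70 rose. Groups did not overlap for 1 of 9 genes under E2+Pg (Stc2) and 1 of 9 under E2 (Ctsd), against 2.61% and 3.54% of all genes. The median difference of the 9 was 0.06 under E2+Pg, −0.20 under E2 and −0.16 averaged, against −0.02, 0.02 and 0.005 over all genes. These medians join members that went both ways, 5 higher and 4 lower under E2+Pg and 3 higher and 6 lower under E2.

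Calls within a treatment depended on the mice that lay nearest to the other genotype. Without L18, Greb1 (−4.27, adjusted p = 0.034), Stc2 (−1.49, 0.0244), Cited1 (1.81, 0.035) and Nrip1 (0.64, 0.0408) were called under E2+Pg (limma), and without L21, Greb1 (−4.13, 0.0466), Stc2 (−1.52, 0.0182) and Cited1 (1.82, 0.0439) were. Stc2 under E2+Pg was also called when L72, a mouse of the E2 group, was left out (0.0421). Without L72, Greb1 (−4.42, adjusted p = 0.0172), Egr3 (−1.17, 0.0152) and Ctsd (−0.75, 0.032) were called under E2 (limma). These mice were singled out after their values were seen, so the calls without them are no separate support.

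Adding Pg to E2 lowered Stc2 in C451A-ERα mice. It averaged 11.28 ± 0.43 under E2+Pg and 13.52 ± 0.57 under E2 (SD, n = 5 each), and fell by 2.24 on the log2 scale (SE 0.27, 4.72-fold, adjusted p = 0.000988, limma), with no overlap and a lower signal on 5 of 5 slides. Without L63 the difference was −2.15 (adjusted p = 0.00332) and without L4 it was −2.10 (0.00361), and it stayed called whichever mouse was left out. In wild-type mice Stc2 averaged 12.69 ± 0.39 under E2+Pg and 13.76 ± 0.34 under E2 (SD, n = 5 and 4), a difference of −1.07 (SE 0.29, adjusted p = 0.0666, limma), also without overlap.

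The other members did not pass the test for Pg in either genotype. In C451A-ERα the differences were 0.92 for Egr3 (adjusted p = 0.0528), −1.29 for Cited1 (0.129), −1.01 for Myb (0.089), 0.43 for Siah2 (0.0742) and −0.94 for Greb1 (0.643). In wild-type mice they were −1.61 for Cited1 (adjusted p = 0.0969), −0.52 for Egr3 (0.336), −0.46 for Nrip1 (0.275) and −0.92 for Greb1 (0.659). Egr3 in C451A-ERα was called when L58 (1.13, adjusted p = 0.0107), L72 (0.0368) or L21 (0.0474) was left out, Myb without L18 (−1.27, 0.0218), Stc2 in wild-type without L76, L72 or L57 (−1.07 to −1.23, 0.0357 to 0.0459) and Cited1 in wild-type without L18 (0.049) or L21 (−1.98, 0.0369). Cited1 was lower with Pg on every slide in both genotypes, while Egr3 was higher on 5 of 5 slides in C451A-ERα and lower on 4 of 4 in wild-type. In counts, 1 of 9 members was called in C451A-ERα, where 2.47% of all genes were, and 0 of 9 in wild-type, where 1.36% were (with 6 and 3 of 9 below 0.05 before adjustment). Groups did not overlap for 1 of 9 members in C451A-ERα, against 5.11% of all genes, and for 2 of 9 in wild-type (Stc2 and Nrip1), against 8.74%. For the interaction 0 of 9 were called, where 0% of all genes were, and 4 of 9 had a p under 0.05 before adjustment, as did 1948 of all genes.

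Markers of hormone-sensing luminal cells, the cells that hold ERα, moved with Pg as well. Of 8 such genes, 4 were called lower with Pg in C451A-ERα, where 2.47% of all genes were called, with a median difference of −1.04. In wild-type 0 of 8 were called, where 1.36% of all genes were, with a median of −0.69. Before adjustment, 6 of 8 had a p under 0.05 (limma) in each genotype, as did 3815 and 3388 of 20690 genes. For the interaction 0 of 8 did, and 1948 of all genes. The mean level of the 8 markers per mouse was 11.00 to 12.11 under E2+Pg and 12.43 to 12.76 under E2 in C451A-ERα, and 11.60 to 11.85 and 12.25 to 12.78 in wild-type, with no overlap in either genotype. Their part in the Stc2 and Cited1 differences was not tested. Between the genotypes the same 8 genes had an averaged median of 0.13, with 1 called lower, where 2.27% of all genes were called.

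**Figure D3:**
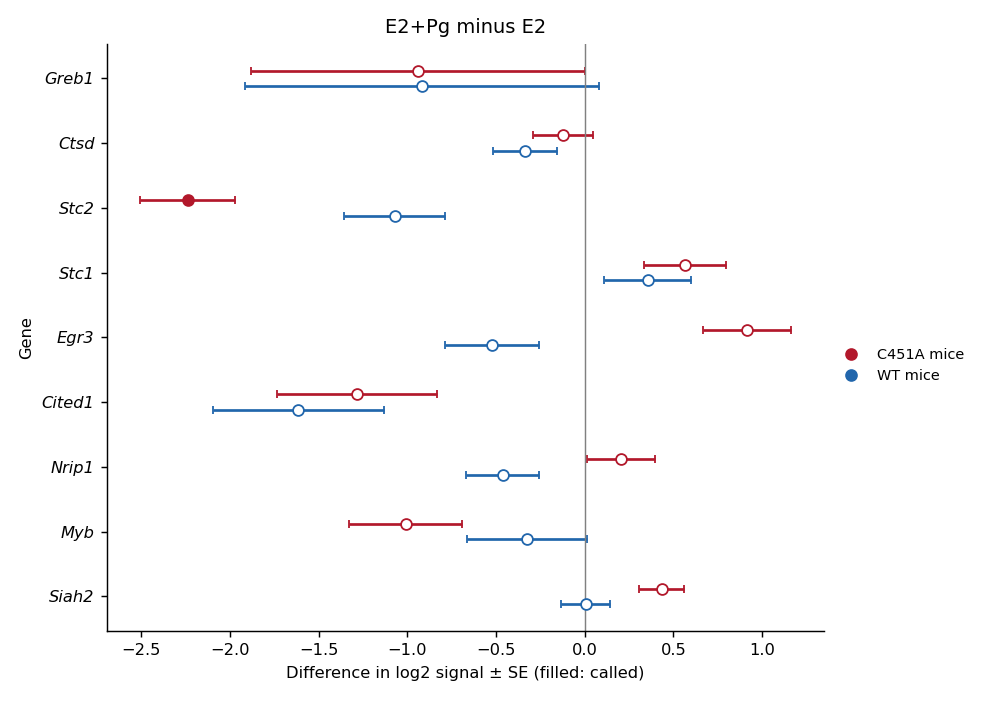
Log2 difference between E2+Pg and E2 for each tested gene in C451A-ERα (red) and wild-type mice (blue), ± SE; filled points passed the test. Stc2 in C451A-ERα, at −2.24, is the filled point, and Egr3 lies at 0.92 in C451A-ERα and −0.52 in wild-type.

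Within groups, 3 of the 8 other tested members varied with Greb1 over the 19 mice, and for Cited1 and Stc2 r was much smaller without the 4 mice that stood apart. After the mean of its group was taken off each value, Cited1 ran against Greb1 (Pearson's r = −0.70, permutation p = 0.00075, adjusted 0.0032 over 8 relations; Spearman's rho = −0.65, adjusted 0.0111). Myb ran with Greb1 (r = 0.71, adjusted permutation p = 0.0032; rho = 0.71, adjusted 0.00536), and so did Stc2 (r = 0.58, adjusted permutation p = 0.0245; rho = 0.63, adjusted 0.0111). The other 5 relations had adjusted permutation p of 0.196 or more. The permutations shuffled the deviations freely over all mice and made no allowance for the group means taken off. The permutation p values of these relations are therefore likely too small. Without L4, L18, L72 and L21 none of these 3 passed the test: over the remaining 15 mice r was 0.03 for Cited1, 0.63 for Myb and 0.22 for Stc2 (adjusted permutation p = 0.91, 0.0723 and 0.75). Each of these 4 mice had the highest or lowest Greb1 and Cited1 of its group. Leaving them out therefore narrows the range of both genes, and it cannot decide whether the relations rest on them. Over the same 15 mice Egr3 ran against Greb1 (r = −0.77, adjusted permutation p = 0.00848), against −0.20 over all 19. The genotypes went opposite ways with all mice kept. Within groups the Egr3 r was −0.51 in C451A-ERα and 0.93 in wild-type under E2+Pg, and −0.98 and 0.84 under E2.

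The groups differed in these relations. Taken within a group, Myb had an r of 0.88 in C451A-ERα and 0.26 in wild-type under E2+Pg, and of 0.82 and 0.12 under E2, as a description over 4 or 5 mice each. Stc2 had an r of 0.08 in C451A-ERα and 0.72 in wild-type under E2+Pg, and of 0.71 and 0.95 under E2, while Cited1 was negative in all 4 groups (−0.58 to −0.96). Without L58 and L53, the 2 mice farthest from the Greb1 median, r was −0.77 for Cited1, 0.68 for Myb and 0.71 for Stc2. Without L58 and L72, the 2 farthest after group means were taken off, it was −0.74, 0.73 and 0.55 in the same order, and the Stc2 relation no longer passed (adjusted permutation p = 0.0563). With slide means taken off as well as group means, r was −0.81, 0.69 and 0.52 (adjusted permutation p = 0.00024, 0.00556 and 0.0454), and Nrip1 also passed (−0.52, 0.0454). The shuffling made no allowance for either set of means, so these p values are likely too small. Whether Stc2 and Nrip1 would pass with such an allowance was not tested. All of these alternatives but the first pair left out were chosen after seeing the data, and the points share the arrays.

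**Figure D4:**
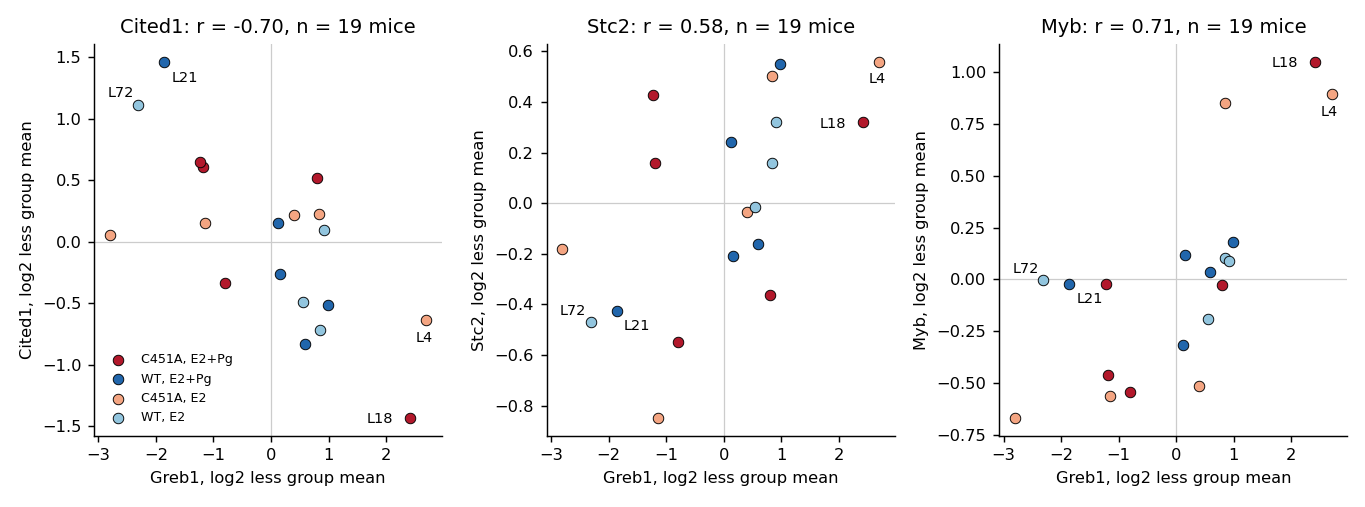
Deviation from the group mean (log2) of Cited1, Stc2 and Myb against that of Greb1, 1 point per mouse (n = 19), coloured by group. Mice L4, L18, L72 and L21 are named; L4 and L18 lie to the right, with high Greb1, and L72 and L21 to the left, with low Greb1.

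The genes whose deviations from the group means followed those of Greb1 most closely over the 19 mice were Nmnat2 (an enzyme of NAD synthesis, r = 0.93), Pknox2 (a homeobox transcription factor, 0.93), Dapl1 (0.92), Pard6g (a cell polarity protein, 0.91) and an unnamed transcript of chromosome 3 (0.91), out of 20658 genes compared. Without L4, L18, L72 and L21 their r was 0.67 to 0.85, and with slide means taken off as well it was 0.92 to 0.95. All 5 had lower group means in C451A-ERα: Dapl1 averaged 6.47 in C451A-ERα and 10.41 in wild-type under E2+Pg, and 8.53 and 11.46 under E2.

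Among 32 other known estrogen targets, 28 were tested. Averaged over treatments 2 were called lower in C451A-ERα and 1 higher, where 2.27% of all genes were called, with a median of 0.20 against 0.005 over all genes. Cxcl12, a chemokine, was 7.21 to 8.85 (median 7.70) in C451A-ERα and 8.65 to 9.53 (median 9.37) in wild-type under E2+Pg, and 7.58 to 9.18 (median 8.28) and 8.14 to 11.08 (median 10.69) under E2. It fell by 1.68 on the log2 scale averaged over treatments (SE 0.34, adjusted p = 0.0199, limma). Agr2, a disulfide isomerase of the endoplasmic reticulum, averaged 5.13 ± 0.38 in C451A-ERα and 7.06 ± 0.94 in wild-type under E2+Pg (SD, n = 5 each), where its probe was above background on 1 and 4 of 5 arrays. It fell by 2.02 (SE 0.44, adjusted p = 0.0226, limma). For both, the adjusted p passed 0.05 when L67, L50 or L52 was left out (0.0556 to 0.0681). Olfm1, a secreted glycoprotein, rose by 1.50 (SE 0.40, adjusted p = 0.0489, limma), a call that held without L4, L18, L72 or L21 and was lost without any 1 of the other 15 mice (0.0677 to 0.13) and in 6 of 8 other settings (adjusted p up to 0.0791). In these 3 genes too, L72 and L21 were the wild-type mice nearest to C451A-ERα, and L4 and L18 the C451A-ERα mice nearest to wild-type, within their treatments. Hspb8, a small heat shock protein, differed by −0.51 (adjusted p = 0.0226, limma) with a fold of 1.43, under the fold threshold, and did not overlap between genotypes under E2+Pg (−0.61, 0.113). Myc (0.47, adjusted p = 0.218) and Igfbp4 (0.37, 0.262), a cell growth regulator and a binding protein of insulin-like growth factors, did not overlap under E2+Pg either and were not called. Groups did not overlap there for 2.61% of all genes. The gap was tiny for Hspb8 (C451A-ERα highest 10.1868, wild-type lowest 10.1874) and Igfbp4 (C451A-ERα lowest 6.3718, wild-type highest 6.3715). For Myc, C451A-ERα lowest was 11.26 and wild-type highest 11.16. With Pg in wild-type mice, the EGF-family ligand Areg (−1.24, adjusted p = 0.12) and the adenosine receptor Adora1 (1.04, 0.0943) had groups without overlap that were not called, and with Pg in C451A-ERα the scaffold gene Slc9a3r1 did (0.22, 0.143). Groups did not overlap for 8.74% of all genes with Pg in wild-type and 5.11% in C451A-ERα. The Adora1 probe was near background, above it on 2 of 4 wild-type arrays under E2 and 5 of 5 under E2+Pg. Pgr, the progesterone receptor, differed by −0.50 between genotypes (adjusted p = 0.133, limma), and it fell by 0.99 with Pg in C451A-ERα (adjusted p = 0.0373, limma), a call lost without L56, L4, L61, L27, L51 or L63 (0.0559 to 0.123) and in 5 of 9 other settings. In wild-type mice Pgr averaged 10.51 ± 0.21 under E2+Pg and 11.22 ± 0.27 under E2 (SD, n = 5 and 4), a difference of −0.72 without overlap (adjusted p = 0.174, limma).

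**Figure D5:**
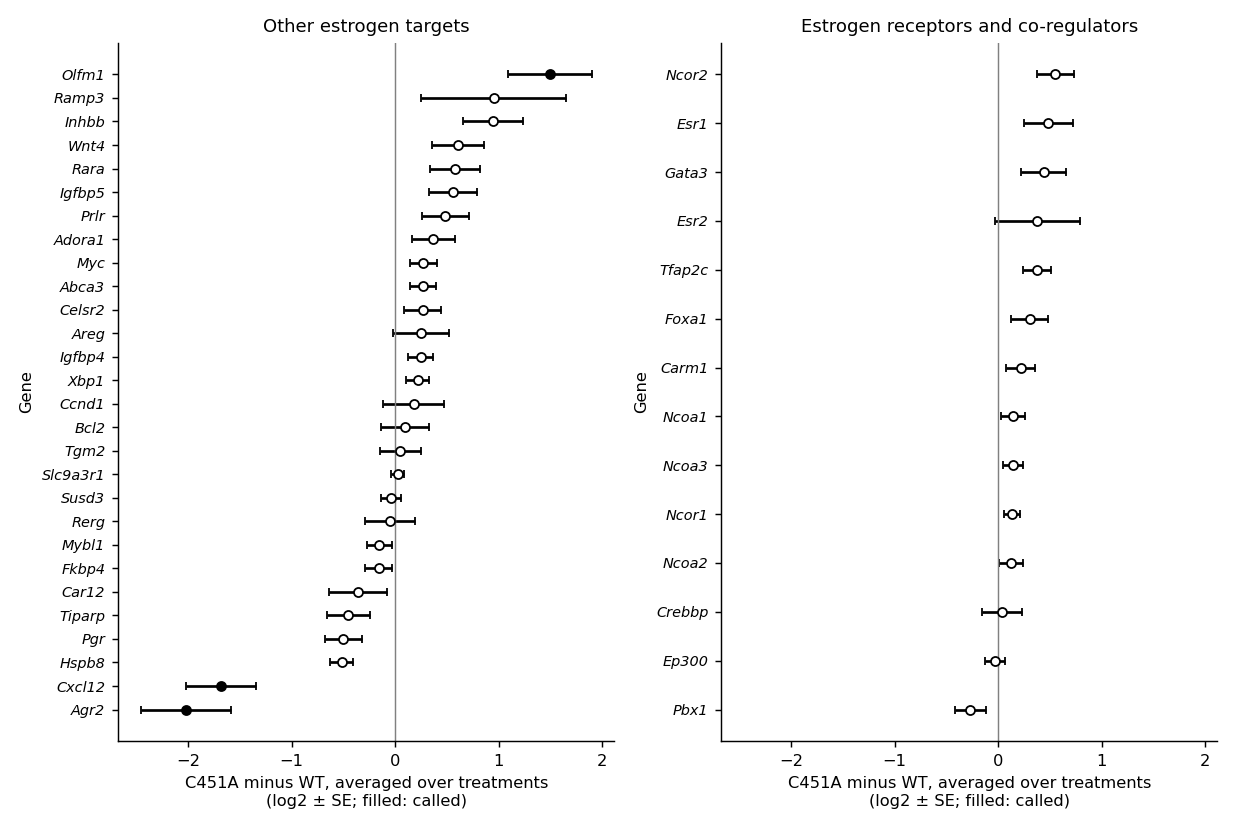
Log2 difference between C451A-ERα and wild-type averaged over treatments, ± SE, for 28 other estrogen targets and 14 receptor and co-regulator genes; filled points passed the test. The filled points are Agr2 at −2.02, Cxcl12 at −1.68 and Olfm1 at 1.50.

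Of the receptors and co-regulators through which these targets are reached, 14 of 15 were tested. Averaged over treatments 0 were called between genotypes, against 2.27% of all genes, with a median of 0.18. Esr1, the gene of ERα itself, averaged 10.16 ± 0.95 in C451A-ERα and 9.70 ± 0.22 in wild-type under E2+Pg, and 11.17 ± 0.34 and 10.67 ± 0.25 under E2 (SD), a difference of 0.48 averaged over treatments (adjusted p = 0.283, limma). Esr1 means were not lower in C451A-ERα in either treatment, and the part of Esr1 in the Greb1 and Stc2 differences was not tested. With Pg, Foxa1, a pioneer factor for ERα, fell by 1.18 in C451A-ERα (adjusted p = 0.0135, limma) and Tfap2c, which encodes AP-2γ, rose by 0.77 (adjusted p = 0.0293, limma), the second a call lost without L4, L27, L76 or L63 (0.0575 to 0.0856). The Foxa1 call was also lost in a fit of only the groups compared (0.0789) and that of Tfap2c with the slide as a block (0.0659). In wild-type mice Tfap2c differed by 0.73 (adjusted p = 0.0666, limma), Foxa1 by −0.73 (0.162) and Esr1 by −0.97 (0.163), the last 2 without overlap.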

How the data were processed

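RNA of sorted LCs was hybridised to single-colour Agilent mouse arrays, and the authors deposited scanner tables (Agilent Feature Extraction 10.10.1.1, per the submitters' processing notes) with spot intensities, and a value table of log2 signals that the authors had filtered, corrected for batch and quantile normalized (used as an alternative). From the median intensity of each spot, log2 values were quantile normalized, 1370 outlier-marked spots were left out, probes were kept that the scanner software marked as well above background in 4 or more of 19 arrays, and each gene name was represented by its brightest probe. Fits used limma 3.58.1 in R 4.3.3 with 4 group means (15 residual degrees of freedom) and 6 comparisons. Exact permutation tests were two-sided. The fits were tested on simulated data. The number of arrays limits the precision. Background medians were 21 to 29 and no member spot was saturated. The 5 slides were used as a block in an alternative. Labels name mice but no shared litter. The genes and lists were chosen with earlier results of these data known. Named genes were the 10 members, Esr1, Pgr and Tnfsf11, listed genes that were called or whose groups did not overlap at an unadjusted p under 0.05 (at most 4 per comparison and direction), and the 5 genes most like Greb1 within groups; Hspb8's averaged value and Calca were added. The mouse and slide of each array came from the labels and the scanner tables.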

Additional observations from a re-analysis of the deposited data

Results flagged for a closer look

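In 2 of 36 sets of values (9 genes in 4 groups of mice), 1 value lay far from the rest (chance gives about 1 in 20). Greb1 in wild-type mouse L72 under E2 was 9.51, against 12.38 to 12.75 in the other 3 mice of its group. Cited1 in C451A-ERα mouse L4 under E2 was 15.46, against 16.15 to 16.32 in the other 4. Both mice are among the 4 whose Greb1 and Cited1 lay nearest to the other genotype.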

How the results depend on the processing

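Of the 516 values of the members under other settings, 487 kept direction and side of the threshold, as did 945 of the 1026 with 1 mouse left out. The members called under E2 (0) became 4 with array weights, and 1 without L4, L27 and L18, a choice made after seeing the data. Under E2+Pg (0) they became 1 in the authors' value table, 4 with weights and 5 without those 3 mice. With Pg in C451A-ERα (1) they became 2 with normexp correction, 3 in the authors' table, 2 with probes above background on all arrays and 3 with weights. With Pg in wild-type (0) they became 2 in the authors' table, 2 with weights and 2 without the 3 mice. With 1 mouse left out, the counts were 0 to 3 under E2, 0 to 4 under E2+Pg, 0 to 4 averaged, 1 to 2 with Pg in C451A-ERα and 0 to 1 with Pg in wild-type.

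Signs turned for small differences. Stc1 under E2+Pg became −0.0052 with normexp, −0.2002 with weights and −0.0575 without the 3 mice. The Greb1 interaction became 0.0268 with normexp, 0.0412 in the authors' table, 0.1524 with weights and 0.5554 without the 3 mice. Myb under E2 became −0.2618 with weights and −0.3938 without the 3 mice, and Nrip1 under E2 became 0.0234 without them. The r of Greb1 and Egr3 was 0.0861 without L58 and L53, that of Greb1 and Cited1 was 0.0323 without L4, L18, L72 and L21, and that of Greb1 and Ctsd was −0.0585 with slide means taken off. With 1 mouse left out, ranges that crossed 0 were −0.2551 to 0.0912 (Stc1, E2), −0.0361 to 0.3541 (Myb, E2), −0.0133 to 0.0996 (Siah2, E2), −0.0886 to 0.1845 (Stc1, E2+Pg), −0.1189 to 0.0757 (Stc1, averaged), −0.0517 to 0.0547 (Siah2, Pg in wild-type), −0.7213 to 0.7502 (Greb1, interaction), −0.0309 to 0.3337 (Stc1, interaction) and −0.0418 to 0.6944 (Cited1, interaction). The cause was not tested.

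Over all genes, 6 were called under E2 (0 to 2235 under other settings, 0 without L67 and 1033 without L72), 1 under E2+Pg (0 to 2228, and 1075 without L18), 470 averaged (247 with the slide as a block to 2530 with weights, 4 without L52 and 996 without L72), 511 with Pg in C451A-ERα (153 with only the groups compared to 716, and 203 to 967 with 1 mouse left out) and 281 with Pg in wild-type (73 with the slide as a block to 1637, and 28 to 577). Array weights favour mice near their own group and were lowest for L4, L27 and L18. No pairing by replicate number was possible because mouse names are unique; mice on the same slide were compared through the slide block and within slides. Signals near background limit Stc1, Pdzk1, Agr2 and Adora1, and the size of the Greb1 fold changes, since its lowest C451A-ERα signals lay close to background.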
